A study of Mus musculus with 11 samples.

Results

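Gata2, Gata3, Lmx1a, Otx1, Otx2, Pax2, Emx2 and Eya1 are transcriptional regulators known for dividing the otic epithelium into regions. They were taken as a list of 8 gene symbols, of 24898 gene symbols in the 4 expression tables. Gata2 and Gata3 are zinc finger factors, and Gata3 is required for cochlear growth. Lmx1a is a LIM homeodomain factor whose loss disturbs the border between sensory and non-sensory epithelium. Otx1 and Otx2 are homeodomain factors known for a role in Reissner's membrane, which forms the roof of the cochlear duct. Pax2 is a paired domain factor needed for outgrowth of the duct, Emx2 is a homeodomain factor that sets hair cell (HC) number and orientation, and Eya1 is a phosphatase and coactivator that acts with homeodomain partners in the sensory lineage. In GRCm38 the genes lie at chr6:88193891-88207032 (Gata2), chr2:9857078-9890034 (Gata3), chr1:167689237-167848741 (Lmx1a), chr11:21994764-22002897 (Otx1), chr14:48657677-48673819 (Otx2), chr19:44756045-44837871 (Pax2), chr19:59458372-59465357 (Emx2) and chr1:14168954-14310235 (Eya1), all annotated as protein coding.

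The data were droplet single-cell profiles of cochlear epithelium from wild type CD1 mice. There were 2 libraries at embryonic day 14 (E14), 3 at E16, 4 at postnatal day 1 (P1) and 2 at P7. Each collection pooled cochleae of several animals, so that a library is a pool and not an animal. In all, 30634 cells were measured, with library medians of 2478 to 5648 unique molecular identifiers (UMIs, 1 for each captured transcript) per cell. Between 5 and 27 cell barcodes were shared by each pair of libraries of an age.

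No annotation of cells was used, and positions in the duct were read from 1 marker gene each. A cell entered a marker group with at least 2 UMIs of the marker and at least 0.1 of the level in the top 1% of cells of its library. Oc90 marks the roof, Otoa and Epyc the medial side with Kölliker's organ (KO), Fgf20 and Fgfr3 the medial and lateral prosensory domain, and Bmp4 the lateral edge. HCs were taken by a list of 8 HC genes. The prosensory names hold for the embryonic ages. After birth Fgfr3 is known from pillar and Deiters' cells, which are supporting cells, and the P1 and P7 groups are called Fgfr3 cells. KO and HCs were compared with the mean of Fgf20 and Fgfr3 cells at E14 and with Fgfr3 cells at E16, P1 and P7. A group was used at an age where at least 2 libraries held at least 20 of its cells. By this rule Fgf20 cells could be used only at E14, and Oc90 and Bmp4 cells at E14, E16 and 2 of the 4 P1 libraries. Of the 8 genes, Otx1 and Pax2 were not analysed at P7. Some further markers of the regions followed the groups and others did not. Vmo1 was at 74.9 CPM in E14 Oc90 cells against 1.61 CPM or less in the other E14 groups, and Prox1 was at 131 CPM in E14 Fgfr3 cells against 38.9 CPM or less. Sparcl1, another roof marker, was at 232 CPM in E14 Oc90 cells and 357 CPM in Epyc cells, and at P1 at 224 and 1288 CPM. Of 2 further genes listed for the Bmp4 region, Fst was at 915 CPM in E14 Bmp4 cells against 447 CPM or less elsewhere, and Lgr6, which is also known from pillar cells, was at 0 CPM there and at 18.8 CPM in Fgfr3 cells. Otog, the further Otoa-region marker read at every age, was at 165 CPM in E14 Otoa cells and 184 CPM in Fgf20 cells, and it was higher in Oc90 than in Otoa cells at E16 and P1. At P7 Otog was at 77.6 CPM in Otoa cells, 171 CPM in HCs and 561 CPM in Fgfr3 cells. Ceacam16, read at P7 alone, was at 7.01 CPM in Otoa cells and 3.55 CPM or less in the other groups. The Otoa group of E14, E16 and P1 thus rests on Otoa alone, and that of P7 on Otoa and a low level of Ceacam16. Cells without a group were not named.

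Levels are the mean UMIs per 1000000 UMIs of a cell (CPM) over the cells of a group in 1 library. Lists of values give the libraries in replicate order. Differences were tested with limma on log2(CPM + 10), with the library as a block. Each p-value was adjusted (Benjamini-Hochberg) over all genes tested in its comparison, 9287 to 9318 between groups, and genes were called at an adjusted p under 0.05. The added 10 CPM makes differences of low genes smaller than their ratios. In a gated group, fewer expressing cells and less RNA per cell cannot be told apart.

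Windows around RefSeq starts (GRCm38.p6, 250 bases before to 50 after a start) were available for 6 of the 8 genes. These starts differ from the ends of the gene spans given above, and the windows shown for Otx2, Emx2 and Gata3 lie inside those spans. They are shown for a gene high in the roof (Otx2), a gene low in KO (Emx2), and for the pair that rose in Otoa and Epyc cells at P7 (Gata2, Gata3). Capitals mark matches on either strand to 3 short motifs. The motif AGATAA, bound by zinc finger factors such as Gata3, was found in 11.2% of 32851 such windows. The motif TAATCC, bound by Otx factors, was found in 7.06%. The homeodomain motif TAATTA was found in 5.29% and reads the same on both strands. Otx2 has 4 such windows, and the one with the most matches is shown. Gata2 has 2, and the first is shown.
Otx2, chr14:48665060-48665359, minus strand: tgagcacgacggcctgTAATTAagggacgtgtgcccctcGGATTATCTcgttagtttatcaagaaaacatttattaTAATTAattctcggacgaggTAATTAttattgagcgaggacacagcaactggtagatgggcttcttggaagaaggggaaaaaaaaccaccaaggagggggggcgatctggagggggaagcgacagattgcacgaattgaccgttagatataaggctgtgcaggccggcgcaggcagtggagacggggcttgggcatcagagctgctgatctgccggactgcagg
Emx2, chr19:59458440-59458739, plus strand: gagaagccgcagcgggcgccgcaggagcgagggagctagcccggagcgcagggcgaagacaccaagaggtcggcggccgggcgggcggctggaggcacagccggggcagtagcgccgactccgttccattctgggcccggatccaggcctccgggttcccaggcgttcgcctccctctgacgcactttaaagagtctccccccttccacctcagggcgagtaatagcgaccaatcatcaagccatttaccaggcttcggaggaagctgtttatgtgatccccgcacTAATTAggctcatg
Gata2, chr6:88193641-88193940, plus strand: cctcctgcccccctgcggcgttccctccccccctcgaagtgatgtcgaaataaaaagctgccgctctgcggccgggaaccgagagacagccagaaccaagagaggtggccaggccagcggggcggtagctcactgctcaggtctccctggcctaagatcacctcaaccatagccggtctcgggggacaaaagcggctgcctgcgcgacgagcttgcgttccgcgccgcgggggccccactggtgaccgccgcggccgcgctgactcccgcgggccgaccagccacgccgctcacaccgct
Gata3, chr2:9878551-9878850, minus strand: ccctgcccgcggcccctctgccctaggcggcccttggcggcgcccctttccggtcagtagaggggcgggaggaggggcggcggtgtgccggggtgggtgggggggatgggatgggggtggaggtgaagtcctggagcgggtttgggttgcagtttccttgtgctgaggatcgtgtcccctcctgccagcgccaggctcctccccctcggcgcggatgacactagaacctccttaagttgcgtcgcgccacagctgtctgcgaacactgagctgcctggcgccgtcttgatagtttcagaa
The Otx2 window shown held AGATAA once, and 1 match to TAATCC that overlaps it. It held TAATTA at 3 places. The other 3 Otx2 windows held at most 1 match each, the Emx2 window held 1 TAATTA, and no window of Gata2 or Gata3 held a match. A match is not a binding site. Of the Emx2 window, 196 bases lie inside Emx2os, a gene on the opposite strand. The libraries count transcript ends, so the values below do not tell which start was used.

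Of the marker groups, only Oc90 cells held Otx2 and Otx1 above 4 CPM in any library. Otx2 was at 139 and 113 CPM in the E14 Oc90 cells, 136, 127 and 119 CPM at E16 and 125 and 171 CPM at P1. In the other marker groups the highest library was at 3.92 CPM. Otx1 followed at 28.8 and 27.7 CPM at E14, 22.5, 33.9 and 16.7 CPM at E16 and 39.6 and 16.9 CPM at P1, and the Oc90 libraries did not overlap those of any other group for either gene. Oc90 itself was at 23 to 193 CPM in the other groups of E14 to P1, against 34125 CPM or more in Oc90 cells. Its part in the low Otx2 values elsewhere was not tested.

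Lmx1a was high in the roof as well, and at E14 also at the lateral edge. In Oc90 cells it was at 149 and 160.3 CPM at E14, 106, 114 and 94.4 CPM at E16 and 126 and 149 CPM at P1. In Bmp4 cells it went from 131 and 80.8 CPM at E14 to 11.1, 13.6 and 46.8 CPM at E16, a log2 change of -1.89 ± 0.38 (SE, adjusted p = 7.62e-04), the 1 call of 7 in Bmp4 cells at this step (3.54% of all genes). The fall did not pass the test without E14 replicate 1 (adjusted p = 0.12). The endothelial list (4 genes) went from 18.9 to 27.3 CPM to 34.8 to 80.8 CPM in these libraries. Of its genes, 2 were at 0 in E14 and 3 in E16 Bmp4 cells, and 1 to 3 in every other group used. Its part in the fall was not tested. At P7, where no Oc90 group could be formed, Lmx1a had 0 UMIs in the Otoa, Epyc, Fgfr3 and HC groups.

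Against the mean of the log2 levels of the other duct groups, 6 of 7 genes tested were called in E14 Oc90 cells. Of all genes, 8.81% were called there, 5.08% higher and 3.73% lower. Otx2 was higher by log2 3.66 ± 0.14 (SE, adjusted p = 2.39e-28), Lmx1a by 2.56 ± 0.28 (SE, adjusted p = 1.03e-10) and Gata2 by 2.48 ± 0.30 (SE, adjusted p = 3.95e-09). Bmp4 cells, which are among the groups averaged, nonetheless held more Gata2 than Oc90 cells. Gata3 and Eya1 were lower, with differences of -1.63 ± 0.25 (SE, adjusted p = 1.36e-06) and -2.27 ± 0.20 (SE, adjusted p = 4.91e-14). Otx1 had a mean under 10 CPM and was outside the test. With that filter removed its difference was 1.92 at E14. At E16, 6 of 7 genes were called (19.0% of all genes were called, 11.3% higher and 7.73% lower), and at P1 5 of 7 (21.2% of all genes were called, 9.43% higher and 11.8% lower). Otx2, Lmx1a, Gata3 and Eya1 were called in the same direction at all 3 ages, and under each of 27 alternatives of the processing. Here and below, the alternatives include fits without a library of an age outside the comparison. Such fits act on it mainly through the shared estimate of the spread. Pax2 was called at E14 (1.37) and E16 (2.22), with Oc90 libraries at 29.8 and 34.9 CPM at E14 and 33.8, 136 and 24.2 CPM at E16, where replicate 2 stood above the others. The E14 Pax2 call ended without either E14 library (adjusted p = 0.062 without replicate 1 and 0.25 without replicate 2). The summed level of 7 mesenchyme markers was also higher in Oc90 cells, at 148 to 174 CPM at E14, 224 to 310 CPM at E16 and 516 to 635 CPM at P1, against 41.3 CPM or less in every library of the other groups at these ages. Of the 7 markers, 1, 2 and 4 were at 0 in Oc90 cells at E14, E16 and P1. Their part in the roof differences and in the steps with age within Oc90 cells was not tested. Of the related otic regulators tested, 3 of 24 were higher and 12 lower (median difference -0.79, against 0.00 over all genes) at E14, led by Tbx1 (3.54), Tbx3 (2.62) and Nr2f1 (-2.54).

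Gata2 levels in the roof were lower at each later age. In Oc90 cells it was at 305 and 299 CPM at E14, 152, 145 and 116 CPM at E16 and 80.6 and 52.4 CPM at P1. The libraries of the 3 ages did not overlap, but neither step passed the test, with differences of -1.09 ± 0.42 (SE, adjusted p = 0.176) and -1.21 ± 0.41 (SE, adjusted p = 0.0560). The roof difference of 0.79 at E16 was called, but 8 of 27 alternatives ended that call. It is a difference from a mean of log2 levels, and Bmp4 cells, among the groups averaged, were above Oc90 cells at E14, E16 and P1. The change of the roof difference from E14 to E16 was itself called for Gata2, 1 of 7 genes, at -1.70 ± 0.39 (SE, adjusted p = 0.0268), where 0.269% of all genes were called, 0.215% higher and 0.0538% lower, and 13 of 27 alternatives ended it. The other duct groups averaged for this included Fgf20 cells at E14 and not at E16, and with a minimum of 50 cells the value was 0.053. In Oc90 libraries the endothelial list went from 13.5 to 31.0 CPM at E14 to 40.3 to 107 CPM at E16. The neuron list went from 17.5 to 19.2 CPM to 9.25 to 14.2 CPM. The part of the lists and of the averaged groups was not tested. From E16 to P1 the change of the roof difference was called for Emx2, at 1.88 ± 0.39 (SE, adjusted p = 0.00197), where 3.63% of all genes were called, 0.913% higher and 2.72% lower. Without P1 replicate 1 its adjusted p was 0.064. Of the other genes, 2 changed in Oc90 cells from E16 to P1 (6.83% of all genes): Emx2 rose by 1.62 ± 0.40 (SE, adjusted p = 0.00651) and Pax2 fell by 1.61 ± 0.48 (SE, adjusted p = 0.0278). Emx2 was at 21.3, 49.9 and 31.8 CPM at E16 and 150.2 and 122 CPM at P1, in 68 and 61 cells. The other P1 libraries, with 16 and 10 Oc90 cells, gave 5.59 and 0 CPM. With a minimum of 5 cells, which admits them, the step was -0.0046 and the P1 roof difference 0.42 (adjusted p = 0.52), which ended that call. The Pax2 fall ended as a call under 10 of 27 alternatives, and was -0.97 (adjusted p = 0.27) without E16 replicate 2 and -0.96 (adjusted p = 0.41) without P1 replicate 4. At this step the neuron list went from 9.25 to 14.2 CPM to 3.28 CPM or less, and the melanocyte list from 6.40 to 47.4 CPM to 4.33 CPM or less. Their part was not tested.

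The lateral edge held the highest Gata2 levels at E14, E16 and P1, and Gata3 was high there and in Fgfr3 cells, which overlapped Bmp4 cells at E16 and P1. Gata2 was at 1233 and 971 CPM in E14 Bmp4 cells, 802, 809 and 645 CPM at E16 and 559 and 879 CPM at P1. In Otoa cells, at the medial edge, it was at 9.91 and 1.59 CPM at E14, 35.7, 17.1 and 1.58 CPM at E16 and 5.89, 1.55, 0 and 17.6 CPM at P1. Gata3 was at 1029.8 and 981 CPM in E14 Bmp4 cells and 39.1 and 13.9 CPM in E14 Otoa cells. For both genes every Bmp4 library was above every Otoa library of its age. After each cell was thinned to 1500 UMIs, Gata2 was detected in 74.7% (70.8 to 78.3) of E14 Bmp4 cells (exact 95% interval, counting error only) and in 0.990% (0.0251 to 5.39) of Otoa cells.

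Between these edges, 5 of 7 genes were called at E14 (7.31% of all genes were called, 4.04% higher and 3.27% lower), 5 of 7 at E16 (13.8% of all genes were called, 7.41% higher and 6.43% lower) and 4 of 7 at P1 (10.1% of all genes were called, 5.46% higher and 4.61% lower). At E14 Gata2 was higher at the lateral edge by log2 6.18 ± 0.39 (SE, adjusted p = 7.77e-19), Gata3 by 4.89 ± 0.32 (SE, adjusted p = 4.84e-18) and Emx2 by 3.71 ± 0.38 (SE, adjusted p = 4.37e-11). These 3 genes were called at each of the 3 ages and under each alternative. Lmx1a was higher by 2.78 at E14 and 1.26 at E16, the latter lost without E16 replicate 3 (adjusted p = 0.096). Eya1 was the 1 gene called lower, at E16, by a difference of -0.80 ± 0.21 (SE, adjusted p = 0.00452), and the call ended without E16 replicate 2 or 3 (adjusted p = 0.090 and 0.082). The P1 value of Lmx1a, 0.95, lost its call under 17 of 27 alternatives and was 0.28 (adjusted p = 0.86) without P1 replicate 4, and the E14 value for Pax2, 1.53, lost it under 9 of 24, among them those without either E14 library (adjusted p = 0.36 and 0.16). The glia list was lower in Bmp4 than in Otoa libraries, at 94.7 to 129 against 154 to 196 CPM at E14, 89.5 to 100.7 against 104 to 126 CPM at E16 and 56.6 to 66.5 against 132 to 208 CPM at P1. The endothelial list was higher at E14, at 18.9 to 27.3 against 1.45 to 9.59 CPM. Their part in the edge differences was not tested. Of the related regulators, 7 of 24 were higher and 4 lower (median difference -0.07, against 0.027 over all genes) at E14. Tbx3 (2.20) and Zfpm1 (1.95), a GATA cofactor, were higher, and Six2 (-1.99) was lower.

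**Figure D1:**
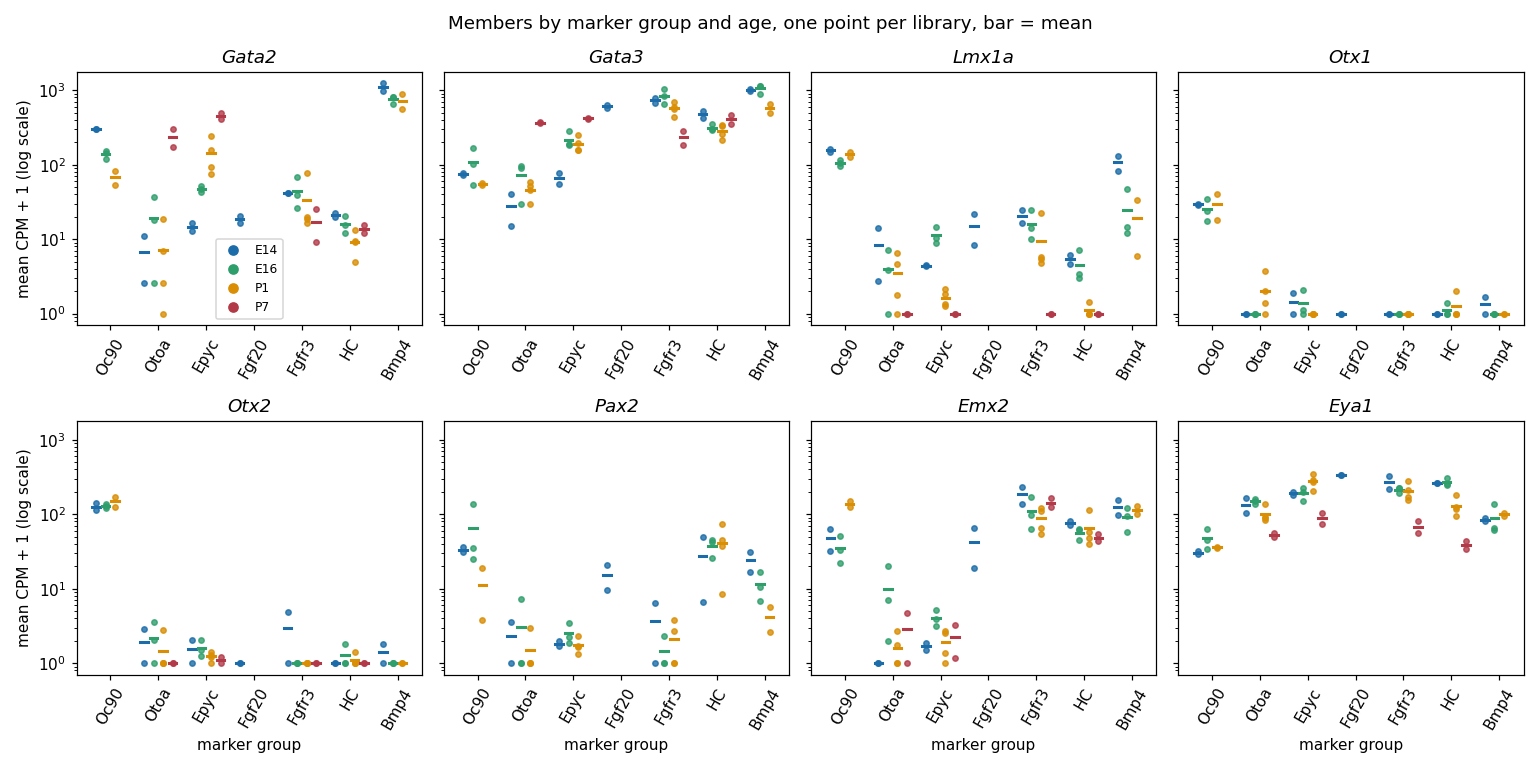
Level of each of the 8 genes (CPM + 1, log scale) by marker group, with 1 point per library, colours for ages and bars for means. Otx1 and Otx2 are high in Oc90 cells, Gata2 is highest in Bmp4 cells at E14, E16 and P1, and Emx2 is at most 19.3 CPM in Otoa and Epyc cells at all ages.

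Emx2 was lower in Epyc than in Fgfr3 cells at every age. In Fgfr3 cells it was at 232 and 134 CPM at E14, 61.7, 169 and 95.6 CPM at E16, 108, 52.4, 64.3 and 122 CPM at P1 and 162 and 122 CPM at P7. In Epyc cells the highest library was at 4.14 CPM, and the groups did not overlap. The tested comparison gave log2 differences of -3.11 ± 0.33 (SE, adjusted p = 1.02e-10) at E14, -3.09 ± 0.31 (SE, adjusted p = 1.62e-11) at E16, -3.08 ± 0.27 (SE, adjusted p = 5.37e-14) at P1 and -3.75 ± 0.38 (SE, adjusted p = 1.44e-11) at P7. Within the E14 prosensory domain, 1 of 7 genes was called (4.91% of all genes were called, 2.16% higher and 2.75% lower): Emx2 was higher in Fgfr3 cells than in Fgf20 cells, at 64.6 and 18.0 CPM, by 2.03 ± 0.38 (SE, adjusted p = 4.22e-04). Without E14 replicate 2 the adjusted p was 0.058. The endothelial list was at 15.6 to 49.4 CPM in these Fgfr3 and 2.18 to 11.8 CPM in Fgf20 libraries, with 3 of its 4 genes at 0 in each group. The neuron and melanocyte lists were at 0 CPM in Fgfr3 cells against 13.4 to 23.2 and 10.6 to 10.9 CPM in Fgf20 cells. Their part in the Emx2 difference was not tested. Between these domains Gata3 differed by 0.27 ± 0.32 (SE, adjusted p = 0.724).

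Emx2os overlaps Emx2 by 264 bases on the opposite strand and was called in the same direction in KO at E14, E16 and P1. Emx2os was at 43.7 and 70.6 CPM in E14 Fgfr3 cells and at 0 in both E14 Otoa libraries. Over 23 age and group means both genes had a Pearson correlation of 0.84, a description over groups that share libraries. Otx2os1, which overlaps Otx2 by 5112 bases, was at 27.1 and 15.6 CPM in E14 Oc90 cells and had a correlation of 0.996 with Otx2 over 19 means. The rank correlation was 0.61. Both overlaps include the starts of the genes, and the libraries count transcript ends. Whether strand was used in counting was not checked, so reads of such pairs may not be fully told apart.

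Gata3 was lower in KO than in prosensory cells at E14 and E16, and lower than in Fgfr3 cells at P1. In Epyc cells it was at 75.4 and 54.4 CPM at E14, 186, 182 and 279 CPM at E16, 158, 158, 192 and 246 CPM at P1 and 405 and 428 CPM at P7. In Fgfr3 cells it was at 794 and 668 CPM at E14, 1045, 657 and 836 CPM at E16, 429, 558, 693 and 591 CPM at P1 and 281 and 181 CPM at P7. The Epyc libraries were below the Fgfr3 libraries through P1 and above them at P7. Gata2 in Epyc cells was at 12.0 and 15.3 CPM at E14, 42.6, 46.1 and 50.3 CPM at E16, 157, 74.9, 91.0 and 244 CPM at P1 and 488 and 415 CPM at P7. The 4 ages did not overlap for Gata2.

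The KO comparison called 3 of 7 genes at E14 (9.44% of all genes were called, 4.86% higher and 4.59% lower), 2 of 7 at E16 (16.5% of all genes were called, 9.21% higher and 7.30% lower), 4 of 7 at P1 (18.0% of all genes were called, 7.76% higher and 10.3% lower) and 2 of 6 at P7 (18.0% of all genes were called, 8.91% higher and 9.11% lower). Gata3 was lower in Epyc cells, with differences of -3.18 ± 0.28 (SE, adjusted p = 1.75e-13) at E14, -1.93 ± 0.26 (SE, adjusted p = 5.96e-08) at E16 and -1.54 ± 0.23 (SE, adjusted p = 2.18e-07) at P1. Its P7 difference was 0.85 ± 0.32 (SE, adjusted p = 0.0563), which did not pass. For Gata2 the differences at E14 and E16 were -0.65 and 0.14, and neither was called. Gata2 was higher in Epyc cells by 1.93 ± 0.28 (SE, adjusted p = 1.04e-07) at P1 and 4.21 ± 0.39 (SE, adjusted p = 5.36e-13) at P7. The other-cell lists also differed between these groups. Glia markers were at 90.3 to 102.6 CPM in E16 Epyc and 71.4 to 79.1 CPM in Fgfr3 libraries, and mesenchyme markers at 8.58 to 33.0 CPM in P1 Epyc and 6.94 CPM or less in Fgfr3 libraries. At P7 the mesenchyme, neuron, glia and endothelial lists were each higher in Epyc than in Fgfr3 libraries without overlap, mesenchyme at 139 to 219 against 14.1 to 75.9 CPM. Their part in the KO differences was not tested. The calls for Lmx1a, at E14 and P1, ended under 15 of 26 and 14 of 27 alternatives. Without E14 replicate 1 the E14 value went from -0.96 to -0.64 (adjusted p = 0.58), and without P1 replicate 4 the P1 value went from -0.71 to -0.45 (adjusted p = 0.34). Of the related regulators, 1 of 24 were higher and 6 lower (median difference -0.21, against 0.053 over all genes) at E14, with Sox2 (-3.43), Sall3 (-2.98) and Sall1 (-2.67) the largest.

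From P1 to P7 Gata2 and Gata3 both rose in the Otoa and Epyc groups. In Otoa cells Gata2 reached 304 and 170.5 CPM and Gata3 368 and 363 CPM, against 57.8, 44.7, 28.2 and 50.1 CPM for Gata3 at P1. The steps were log2 3.99 ± 0.39 (SE, adjusted p = 4.00e-12) for Gata2 and 2.80 ± 0.33 (SE, adjusted p = 7.01e-10) for Gata3. With Eya1, which fell by 0.81 and lost that call under 6 of 26 alternatives, 3 of 6 genes were called in Otoa cells (18.5% of all genes). In Epyc cells, where 3 of 6 were called (11.6%), they were 1.74 ± 0.39 (SE, adjusted p = 9.70e-04) and 1.12 ± 0.33 (SE, adjusted p = 0.0128), while in Fgfr3 cells (2 of 6, 13.2%) Gata3 fell by 1.27 ± 0.33 (SE, adjusted p = 0.00411). The change of the KO difference between P1 and P7 was itself called for 2 of 6 genes (9.23% of all genes), for Gata3, at 2.40 ± 0.39 (SE, adjusted p = 9.23e-06), and for Gata2, at 2.28 ± 0.48 (SE, adjusted p = 4.98e-04). The Otoa rises of both genes and the Gata3 change of the KO difference held under every alternative. The Gata2 change of the KO difference ended without P7 replicate 5 (adjusted p = 0.060). The Gata2 rise in Epyc cells ended without P7 replicate 4 (0.051 as adjusted p). The Gata3 rise there ended without either P7 library (adjusted p = 0.12 without replicate 4 and 0.16 without replicate 5), and its fall in Fgfr3 cells ended without P7 replicate 5 (-0.97, adjusted p = 0.18). The summed level of 7 mesenchyme markers also moved, from 8.58 to 33.0 CPM in the P1 Epyc libraries to 139 to 219 CPM at P7, and from 0 to 9.10 CPM to 72.3 to 113 CPM in Otoa cells, where 3 of the 7 were at 0 at each age. The neuron list (5 genes) was at 4.29 to 6.51 CPM in P1 and 30.0 to 37.5 CPM in P7 Epyc libraries, and at 1.80 to 6.19 CPM in P1 and 32.4 to 100.4 CPM in P7 Otoa libraries. The endothelial list (4 genes) was at 5.97 to 46.3 CPM in P1 and 73.3 to 78.5 CPM in P7 Epyc libraries. The glia list (5 genes) was lower at P7 in Otoa libraries, at 39.9 to 74.4 CPM against 132 to 208 CPM. The part of these in the changes of Gata2, Gata3 and Eya1 was not tested. The 327 P7 cells removed as non-epithelial, a mix taken by the mesenchyme, glia and neuron lists, had pooled means of 70.3 CPM for Gata2 and 10.5 CPM for Gata3. Otoa itself was at 1297 CPM in P1 Otoa cells and 477 CPM at P7, and Calb1, a KO marker, at 1283 CPM in P1 and 121 CPM in P7 Epyc cells. Fst, listed for the Bmp4 region, was at 17.1 CPM in P1 and 113 CPM in P7 Epyc cells. Epyc itself was at 579 CPM in P1 Bmp4 cells and 2364 CPM in the 16 Bmp4 cells of P7. How many P7 Epyc cells lie in KO was not tested. In Fgfr3 cells Prox1 went from 163 CPM at P1 to 33.0 CPM at P7, Nrcam from 302 to 58.2 CPM, Ngfr from 92.3 to 33.2 CPM and Sox2 from 348 to 94.8 CPM, while Lgr6 went from 21.4 to 57.0 CPM and Fgfr3 from 577 to 652 CPM. The cells taken by 1 marker thus differed in their other markers between these ages, and the part of this in the steps was not tested. At the earlier steps Gata3 was called in Epyc cells from E14 to E16 (1.58, 2.62% of all genes called, adjusted p = 0.24 without E14 replicate 2) and in Otoa cells (1.11, 8.95%), the latter lost under 9 of 24 alternatives and at 0.60 (adjusted p = 0.52) without E14 replicate 2. At this step the Epyc libraries went from 3.53 to 3.67 CPM to 17.6 to 25.9 CPM for the mesenchyme list, from 10.8 to 15.2 CPM to 32.0 to 65.5 CPM for the endothelial list and from 20.4 to 21.8 CPM to 7.15 to 13.8 CPM for the neuron list. Their glia list went from 114.8 to 115.2 CPM to 90.3 to 102.6 CPM. The Otoa libraries went from 1.45 to 9.59 CPM to 36.6 to 58.0 CPM for the endothelial list, from 154 to 196 CPM to 104 to 126 CPM for glia and from 17.3 to 29.7 CPM to 3.43 to 8.07 CPM for neuron. Of the 4 endothelial genes, 2 were at 0 in E14 and 3 in E16 Otoa cells. Their part in the Gata3 steps was not tested. Gata2 was called in Epyc cells from E16 to P1 (1.30, 5.41%), which 4 of 27 alternatives ended, among them those without E16 replicate 2 (adjusted p = 0.085) and without P1 replicate 4 (adjusted p = 0.055). The neuron list was at 4.29 to 6.51 CPM in the P1 Epyc libraries, below the E16 range, and its part was not tested.

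9230102O04Rik lies within Gata3 on the same strand over 6500 bases, and its correlation with Gata3 over 23 means was 0.90. It rose in P7 Otoa cells too, by 2.99 ± 0.37 (SE, adjusted p = 3.40e-09). The libraries count transcript ends, and on this strand Gata3 ends at chr2:9857078 and 9230102O04Rik at chr2:9883041. Whether reads of both genes were shared in counting was not checked.

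**Figure D2:**
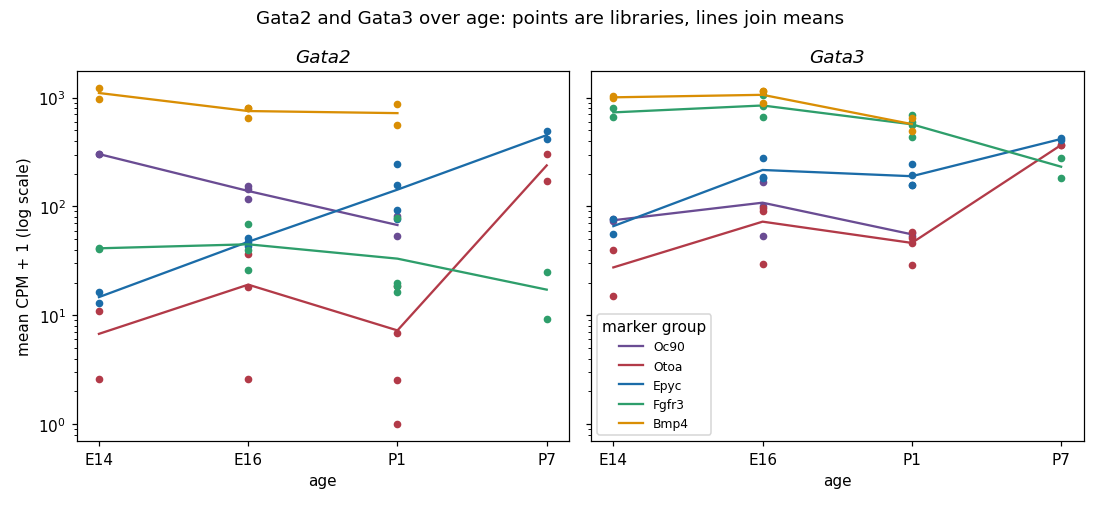
Gata2 and Gata3 levels (CPM + 1, log scale) at E14, E16, P1 and P7 in 5 marker groups, with 1 point per library and lines through the means. Gata2 in Epyc cells goes from 12.0 and 15.3 CPM at E14 to 488 and 415 CPM at P7.

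Pax2 was the 1 gene called higher in HCs at E16 and P1. It was at 24.9, 41.1 and 44.6 CPM in E16 HCs and 7.36, 43.6, 36.0 and 72.9 CPM in P1 HCs. In Fgfr3 cells of these ages the highest library was at 2.82 CPM. The differences from Fgfr3 cells were 2.14 ± 0.37 (SE, adjusted p = 8.23e-06) at E16 and 1.97 ± 0.32 (SE, adjusted p = 1.14e-06) at P1. At E14, limma called 0 of 7 genes (10.7% of all genes were called, 5.17% higher and 5.58% lower), and 2 of them, Lmx1a and Pax2, had an unadjusted p under 0.05. At E16, 4 of 7 were called (26.9% of all genes were called, 15.1% higher and 11.9% lower), at P1 5 of 7 (41.5% of all genes were called, 19.9% higher and 21.6% lower) and at P7 3 of 6 (33.6% of all genes were called, 18.3% higher and 15.3% lower). Gata3 was lower in HCs at E16 (-1.39) and P1 (-0.98). Gata2 (-1.05 and -1.01) and Lmx1a (-0.87 and -0.78) were lower too, and the first Gata2 value ended as a call under 7 of 27 alternatives. It was 0.26 with a minimum of 3 UMIs and -0.63 (adjusted p = 0.21) without E16 replicate 1. The P1 Gata2 call ended under 3 of 27 alternatives, one of them without P1 replicate 4 (adjusted p = 0.055). The Lmx1a calls ended under 5 of 27 alternatives at E16, where a minimum of 1 UMI gave -0.02, and under 4 of 27 at P1. They ended without E16 replicate 2 (-0.56, adjusted p = 0.26) and without P1 replicate 4 (-0.50, adjusted p = 0.16). Eya1 was lower in P1 HCs, with a difference of -0.62 ± 0.18 (SE, adjusted p = 0.00408), under each of 27 alternatives. The P7 value of Gata3, 0.81, was of the other sign, and that call ended under 12 of 24 alternatives. Without P7 replicate 5 it was 0.33 (adjusted p = 0.71). At P7 Emx2 (-1.40) and Eya1 (-0.69) were lower. The Emx2 call ended without either P7 library (adjusted p = 0.083 without replicate 4 and 0.059 without replicate 5), and Eya1 went to -0.31 (adjusted p = 0.63) without replicate 5. The neuron list was at 93.6 to 132 CPM in E14 HCs, 362 to 493 CPM at E16, 533 to 1027 CPM at P1 and 214 to 342 CPM at P7, against 9.17 CPM or less in the Fgfr3 libraries. The glia list was higher in HCs at E16, at 88.6 to 108 against 71.4 to 79.1 CPM, and at P7, at 79.5 to 250.2 against 57.4 to 66.4 CPM. At P7 the endothelial list was at 53.6 to 56.2 CPM in HCs against 32.8 to 35.3 CPM, and at P1 the melanocyte list was at 1.17 CPM or less against 2.08 to 7.36 CPM. Of the 4 endothelial genes, 3 were at 0 in both of these P7 groups. The part of these lists in the HC differences was not tested. At P1 51 further cells with HC genes had been removed by the neuron list, and placing the HC rule first left every call as it was.

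Eya1 was spread over the floor groups and was lowest in the roof. At E14 it was at 338 and 337 CPM in Fgf20 cells, 260.3 and 260.1 CPM in HCs, 86.6 and 80.6 CPM in Bmp4 cells and 30.7 and 28.1 CPM in Oc90 cells. From P1 to P7 it fell, with changes of -1.52 ± 0.26 (SE, adjusted p = 8.68e-06) in Epyc cells, -1.45 ± 0.26 (SE, adjusted p = 2.52e-05) in Fgfr3 cells and, in HCs, -1.53 ± 0.26 (SE, adjusted p = 6.51e-06), where 15.5% of all genes were called. In that HC step Eya1 was 1 of 6 genes called, and the share of the list is close to that of all genes. In HCs it had also fallen from E16 to P1, as 1 of 7 genes called, with a change of -1.03 ± 0.23 (SE, adjusted p = 6.65e-04), with 13.5% of all genes called, again a like share. The P7 libraries were below all P1 libraries in each of these groups. The mesenchyme list moved at the same step, from at most 6.94 CPM in P1 Fgfr3 libraries to 14.1 and 75.9 CPM at P7, and from 4.11 to 4.86 CPM in P1 HCs to 21.9 and 24.6 CPM. The neuron list moved in HCs, from 533 to 1027 CPM at P1 to 214 and 342 CPM at P7, and had been at 362 to 493 CPM at E16. Their part in the falls of Eya1, and of Gata3 in Fgfr3 cells, was not tested.

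**Figure D3:**
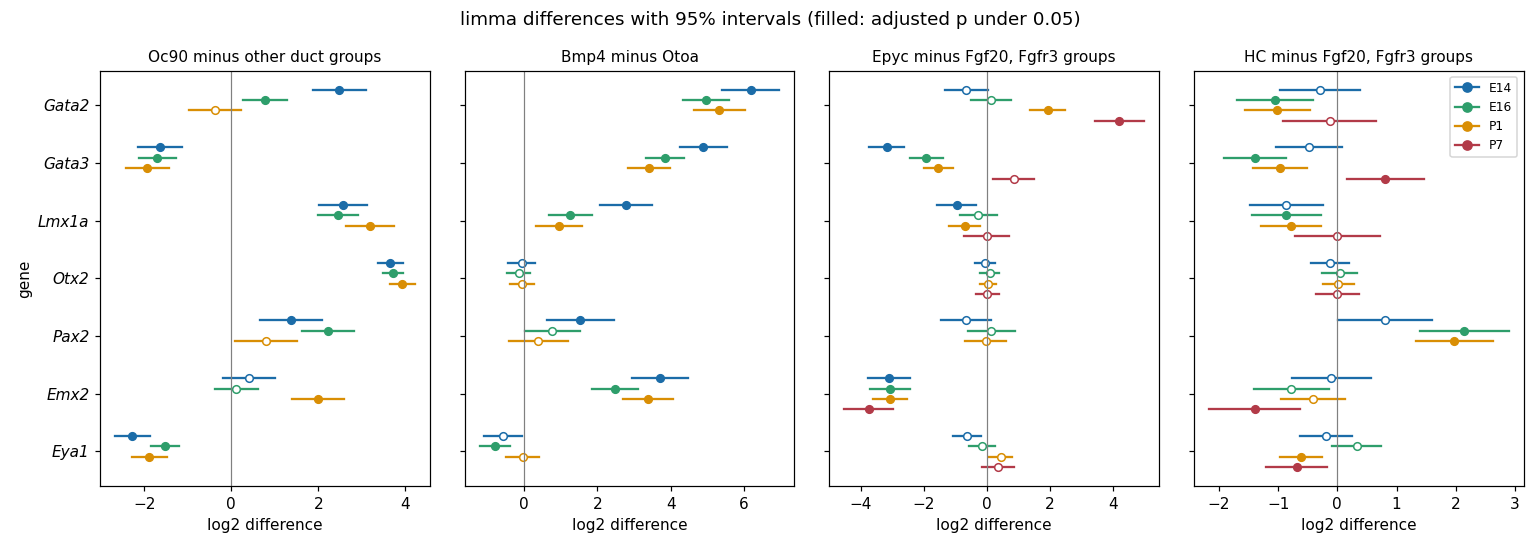
Log2 differences of 7 genes (points) with 95% intervals (lines) for 4 comparisons of marker groups (Epyc cells and HCs against Fgf20 and Fgfr3 cells at E14 and Fgfr3 cells later), coloured by age and filled where the adjusted p was under 0.05. Otx2 is right of 0 in the Oc90 comparison at E14, E16 and P1, and Gata2 moves from left to right of 0 in the Epyc comparison between E14 and P7.

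Over all epithelial cells, 5 of the 8 genes had a mean of at least 10 CPM and were tested, among 8955 to 8964 genes. From E14 to E16 2 were called (8.33% of all genes), from E16 to P1 2 (13.1%) and from P1 to P7 3 (22.8%). Lmx1a fell at the first step and the next, with changes of -1.09 ± 0.14 (SE, adjusted p = 0.00102) and -1.07 ± 0.12 (SE, adjusted p = 1.95e-04). From P1 to P7 Eya1 fell by 1.51 ± 0.21 (SE, adjusted p = 2.28e-04), and Gata2 rose by 1.72 ± 0.33 (SE, adjusted p = 0.00224). Gata3 was called from E16 to P1, at -0.74 ± 0.16 (SE, adjusted p = 0.0103), and from P1 to P7, at 0.65 ± 0.18 (SE, adjusted p = 0.0230). The former ended without E16 replicate 1 (adjusted p = 0.061) and the latter under 4 of 19 alternatives, among them those without P7 replicate 4 (0.13 as adjusted p) and without P7 replicate 5 (adjusted p = 0.16). The share of Oc90 cells was 16.3% at E14, 5.82% at E16 and 1.10% at P1, and that of Bmp4 cells, which held the highest Gata2, was 10.5%, 5.07% and 1.33%. The part of both shares in the changes of Lmx1a, Gata2 and Gata3 over all cells was not tested. The E14 to E16 value for Gata2, -1.23, ended as a call under 13 of 20 alternatives.

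The related regulators gave these counts in the comparisons not yet described, each pair beside the share of all genes called in either direction. The shares by direction stand with the 8 genes above. In the roof, 4 of 24 were higher and 13 lower (19.0%) at E16 and 6 of 24 were higher and 11 lower (21.2%) at P1. At the lateral edge, 6 of 24 were higher and 4 lower (13.8%) at E16 and 4 of 24 were higher and 2 lower (10.1%) at P1. In lateral against medial prosensory cells, 1 of 24 were higher and 5 lower (4.91%) at E14. In KO, 4 of 24 were higher and 6 lower (16.5%) at E16, 6 of 24 were higher and 5 lower (18.0%) at P1 and 0 of 24 were higher and 6 lower (18.0%) at P7. In HCs, 1 of 24 were higher and 6 lower (10.7%) at E14, 5 of 24 were higher and 10 lower (26.9%) at E16, 6 of 24 were higher and 8 lower (41.5%) at P1 and 8 of 24 were higher and 5 lower (33.6%) at P7.

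Over the 23 age and group means, the genes most like Gata2 were Gprin3 (Pearson correlation 0.89) and Rgs4 (0.87). For Emx2 they were Etv5 (0.85), Emx2os (0.84) and Sdc3 (0.82), and for Lmx1a Podxl (0.95), Tbx3 (0.93) and Oc90 (0.89). For Otx2 they were Fam20a, Ttr and Postn, each at 0.99, and for Otx1, over 19 means, Otx2 led at 0.997. By ranks that last value was 0.63 (rank 37 of the genes), and none of Fam20a, Ttr and Postn was among the 3 genes most like Otx2. Pax2 was most like Palld (0.90), Irx2 (0.89) and Dach1 (0.87) over 19 means, Gata3 most like 9230102O04Rik, Eps8 (0.85) and Isl1 (0.85), and Eya1 most like Crym (0.86), Celf2 (0.83) and Dixdc1 (0.83). Postn is 1 of the 7 mesenchyme markers. The points share libraries, and Oc90 chose the roof groups.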

How the data were processed

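Cochlear cells of CD1 mice were profiled on the 10x Chromium platform. The authors aligned reads to mm10 and counted UMIs with Cell Ranger 2.1.1, filtered cells in Seurat 2.0, and deposited natural log (ln) values, ln of 1 plus 10000 times a gene's share of a cell's UMIs. UMIs worked back from these were whole within 2% for 100% of values above 0. The data hold more cells at E14 (2198 and 3055 in the 2 libraries) and at P7 (1775 and 1602) than the study's text gives for these ages. For P7 a figure legend of the study gives a number close to that found here. The study's methods state at least 3 collections for each age, and E14 and P7 had 2 libraries each. In all libraries, 0 to 552 cells had over 3000 genes, a limit in the study's methods, with 0 to 65 also over its limit of 15000 UMIs. Sample groups came from the labels. The members and lists were chosen with earlier results of these data known. By rule the text names the 8 genes and, of 43 related regulators, the 3 of the largest called difference, here given for E14 alone and in counts elsewhere, and the 3 genes most like each, of which 1 is not reported here. Cells were placed in groups in the order non-epithelial lists, HC list (at least 5 UMIs), Oc90, exactly 1 of Otoa, Bmp4, Fgf20 and Fgfr3, then Epyc. Group means (60, from 11 libraries) were fitted with limma 3.58.1 in R 4.3.3 for 9321 genes of at least 10 CPM, with a mean trend and a within-library correlation of 0.27. Per the study's methods each library was a separate collection, and the animals of a collection came from 1 litter. The spread of a gene was estimated in 1 fit over all groups and ages, and was drawn toward the trend over genes. A p-value for an age of 2 libraries thus also rests on the spread in other groups and ages, counting error of small groups included. Groups of an age were mostly compared within the same libraries, so those p-values do not measure the spread between pools alone. Doublets were not called.

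The fit was tested on simulated data of the Bmp4 against Otoa comparison at E14, E16 and P1, with 100 genes changed 2-fold and 100 changed 4-fold in each of 2 simulations. In these, the library effect of a gene was shared by all groups of a library, so that it cancels between groups. Further noise was small, and all cells had the same number of UMIs. Whether groups of a library differ more in the data was not tested, and the shares below hold for this setting only. With equal cell numbers, 99% to 100% of the 4-fold and 53% to 87% of the 2-fold changes were recovered, and 3.76% to 8.29% of calls were false. With the real cell numbers, 71% to 92% and 16% to 45% were recovered, and 7.58% to 16.4% of calls were false, above the nominal 5%. The fit with the real cell numbers thus missed the limits first set for this test, which were then kept for equal cell numbers alone. Among unchanged genes of at least 100 CPM at most 4.15% had p under 0.05, and the false share of calls at that level was not computed. Genes low in most groups, such as Otx2, are not covered by that share. Adjusted p-values close to 0.05 are therefore less sure than they read. Weights from each mean's counting variance, added after this was seen, gave 5.39% to 17.3%. The fit was kept as planned.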

Additional observations from a re-analysis of the deposited data

Results flagged for a closer look

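In P1 Fgfr3 cells, replicate 4 was far above the other 3 libraries for 2 genes: Gata2 was at 76.8 CPM against 15.4, 17.7 and 18.6 CPM, and Lmx1a at 21.2 CPM against 3.75, 4.49 and 4.68 CPM. Of 28 sets of 4 libraries examined, chance alone flags about 1 in 20. Replicate 4 had the lowest median UMIs per cell at P1 (3832), and the part of this was not tested.

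Of 68 tests of whether a difference between groups changed with age, 7 were called by limma. The roof difference of Gata2 changed by -1.70 from E14 to E16 (0.269% of all genes called) and that of Emx2 by 1.88 from E16 to P1 (3.63%). For the former, the groups averaged against the roof included Fgf20 cells at E14 alone. The KO difference of Gata2 changed by 1.78 from E16 to P1 (1 of 7 members, 1.10% of all genes) and by 2.28 from P1 to P7, and that of Gata3 by 2.40 from P1 to P7 (2 of 6 members, 9.23%). The HC difference of Eya1 changed by -0.94 from E16 to P1 (1 of 7 members, 8.99%), and that of Gata3 by 1.78 from P1 to P7 (1 of 6 members, 9.67%), in both HC steps a member share not far from that of all genes. The Gata2 roof value ended as a call under 13 of 27 alternatives, and the Emx2 roof value under 3 of 27, falling to 0.32 with a minimum of 5 cells. The Gata2 KO value ended under 10 of 27 for E16 to P1 and under 3 of 24 for P1 to P7. The Eya1 value ended under 5 of 27, among them those without E16 replicate 2, P1 replicate 1 or P1 replicate 3. The Gata3 HC value ended without P7 replicate 5 (1.31, adjusted p = 0.16 by limma). The KO value of Gata3 held under all 24.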

How the results depend on the processing

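Of 85 member calls, 49 held under every alternative that could be run and 36 ended under at least 1. Fits without a library of another age are counted among the alternatives, though they can hardly move the value of a comparison. Calls over the 3 roof comparisons (17) ranged from 16 to 17 without single libraries, lateral against medial edge (14) from 12 to 14, KO (11) from 9 to 14, HC (12) from 9 to 13, age steps over all cells (7) from 5 to 8, age steps within groups (16) from 13 to 20, and changes with age (7) from 4, without E16 replicate 2, to 10. The single call within the prosensory domain went to 0 without E14 replicate 2 and to 2 with summed UMIs or a marker threshold of 0.3. Leaving out cells over 3000 genes gave 7 calls in KO and 4 changes with age. A minimum of 3 UMIs gave 8 at the edges, 7 in HCs and 4 changes with age. Leaving out cells of several groups gave 8 at the edges, and a minimum of 50 cells 9 at the edges and 7 in KO. These alternatives had fewer comparisons to test. With a minimum of 5 cells, chosen after seeing the data, there were 6 in HCs, 3 changes with age and 0 in the prosensory domain. Counting only values called in the main fit or in the alternative, 4 changed sign, none past the test there. Gata2 in E16 HCs was 0.26 with 3 UMIs and 0.12 with 5 cells, and its E14 to E16 roof change 0.053 with 50 cells. Emx2 in Oc90 cells from E16 to P1 was -0.0046 with 5 cells, which admits 2 P1 libraries of 10 and 16 Oc90 cells. The causes were not tested otherwise. Precision weights gave 17, 12, 12 and 11 calls for roof, edges, KO and HC. A replicate block on the steps from E14 to P1 gave 12 calls within groups against 7, and 5 against 4 over all cells. Same-numbered libraries correlated from -0.29 to 0.091 in their deviations, and the others from -0.195 to 0.296. With 2 libraries at E14 and at P7, deviations there mirror each other, so these values cannot tell whether the numbers pair libraries. The median share of cells with a UMI was 3.86% thinned and 10.1% unthinned, and 9 of the 24 most similar genes were shared with Spearman correlations.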
